A study of Mus musculus with 14 samples.

Results

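Transcripts of 9 genes of glycogen synthesis and breakdown were measured in the livers of 14 mice, of which 7 ate a diet high in fat and sucrose (HFHS) and 7 a diet low in both (LFLS). They were Ugp2, Gyg, Gys2 and Gbe1, which build the polymer, Ppp1r3b and Ppp1r3c, which control its turnover, and Pygl, Phka2 and Phkb, which break it down. The genes were taken by symbol from the authors' gene names and joined by Ensembl identifier to the table of counts. All 9 symbols were found among the 37681 genes of that table, and all 9 were among the 17223 genes expressed highly enough to be tested. Messenger RNA was selected with oligo dT beads and read as single 50 bp reads, with 1 library per mouse. Diet is what the labels give for a mouse. No strain, genotype, sex, age, length of feeding, hour or fed state at collection is given in the sources used here.

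Liver stores glucose after a meal as glycogen, a branched polymer, and releases it between meals to hold blood glucose. Insulin drives dephosphorylation of glycogen synthase and phosphorylase by protein phosphatase 1, which switches synthesis on and breakdown off, while glucagon and adrenaline act through kinases in the other direction. Much of this control works on the enzymes' phosphorylation and on glucose 6-phosphate, which transcript levels do not show.

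The libraries held 18.2 M to 45.4 M counts in HFHS and 18.3 M to 52.8 M counts in LFLS (M, mega). Sample titles began with the number 1 in replicates 1 to 4 and with the number 2 in replicates 5 to 7 of each diet, and the labels do not say what this title number marks. LFLS libraries of title number 1 stood apart on the first principal component, at -73.1 to -25.6, against 30.8 to 35.9 for LFLS libraries of number 2. HFHS libraries lay from -8.64 to 8.16 in number 1 and from 11.5 to 30.0 in number 2. LFLS 1 was the library farthest out, and LFLS 2 held the most exocrine pancreas transcripts, so the diet differences of the 9 genes are also given without them. The 10 hepatocyte markers, albumin among them, took 8.26% to 12.0% of counts in HFHS and 9.39% to 12.8% in LFLS. Of 12 skeletal muscle markers none was expressed highly enough to be tested, and together they took at most 0.000107% in HFHS and 0.000737% in LFLS. In whole liver, fewer cells of a type and less RNA per cell cannot be told apart.

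Transcript levels of the 9 genes spanned a wide range. Per kilobase of annotated exon, Ugp2 was the most abundant in HFHS, at 164 ± 21.4 CPM per kb (SD, n = 7; CPM is counts scaled to a common library size by the trimmed mean of M values, here divided by exon length), against 107 ± 39.4 CPM per kb in LFLS. Gys2 had 99.98 ± 19.2 CPM per kb in HFHS and 123 ± 50.3 CPM per kb in LFLS. The levels of Ugp2 and Gys2 overlapped within 1 SD in LFLS and not in HFHS. Pygl had 60.7 ± 7.05 CPM per kb in HFHS and 56.5 ± 9.41 CPM per kb in LFLS. Ppp1r3b followed with 52.95 ± 15.2 CPM per kb in HFHS and 33.3 ± 19.5 CPM per kb in LFLS, within 1 SD of Pygl in HFHS and of Gbe1 in both diets. Gbe1 had 38.9 ± 6.56 CPM per kb in HFHS and 25.9 ± 7.97 CPM per kb in LFLS. The remaining levels were lower, with Ppp1r3c at 11.1 ± 2.90 CPM per kb in HFHS and 12.9 ± 5.05 CPM per kb in LFLS. The kinase subunits Phka2 and Phkb and the primer gene Gyg lay between 3.06 and 6.28 CPM per kb in HFHS and between 2.39 and 5.23 CPM per kb in LFLS.

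On HFHS, 7 of the 9 genes had higher mean levels than on LFLS and Gys2 and Ppp1r3c had lower ones, with a median log2 fold change (HFHS over LFLS) of 0.27 over the 9 genes and of -0.01 over all genes tested. None of the 9 differences passed edgeR's quasi-likelihood F test, adjusted by Benjamini-Hochberg over all genes, at an adjusted p of 0.05, where 2.81% of all genes did. At an unadjusted p under 0.05, 5 of the 9 passed, where 19.6% of all genes did. No gene of the 9 had all HFHS libraries on one side of all LFLS libraries, which held for 1.65% of all genes. With the title number as a block in the same test, 3 of the 9 were higher on HFHS, namely Ppp1r3b, Gbe1 and Ugp2, against 4.38% of all genes called higher and 8.94% called in either direction.

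**Figure D1:**
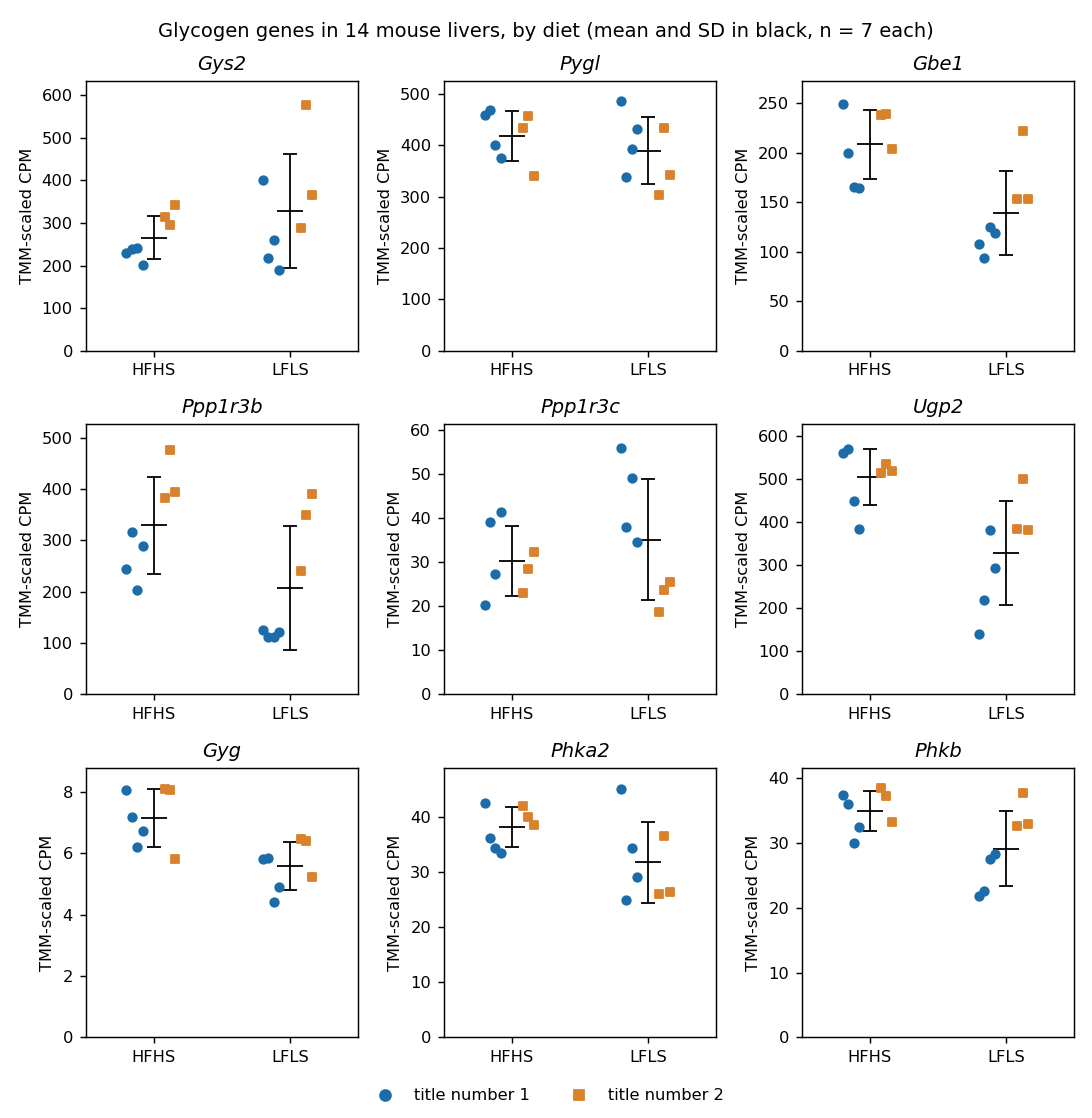
TMM-scaled CPM of the 9 genes in each library, HFHS left and LFLS right, with circles for title number 1 (4 libraries per diet) and squares for title number 2 (3 per diet), and the mean and SD of 7 libraries in black. HFHS means lie above LFLS means in 7 of the 9 panels, and LFLS squares stand far above LFLS circles for Ppp1r3b and below them for Ppp1r3c.

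Among the genes that build glycogen, Ugp2 encodes UDP-glucose pyrophosphorylase, which makes the activated glucose that is added to the chain. Its level ran from 384 through a median of 518 to 568 CPM in HFHS livers, against 139 through 381 to 500.5 CPM in LFLS livers. All 7 HFHS libraries lay above the LFLS median, 5 of them above every LFLS library, and the lowest LFLS value was that of LFLS 1. The log2 fold change was 0.62 ± 0.22 (SE), with an adjusted p of 0.131 in edgeR and of 0.0468 with the title number as a block. The blocked call held in 3 of the 14 tests that each left out 1 library, with adjusted p from 0.0291 to 0.104 in edgeR. Without LFLS 1 and LFLS 2 the blocked adjusted p was 0.0710 for Ugp2, 0.0469 for Gbe1 and 0.0396 for Ppp1r3b in edgeR. HFHS was higher within both title numbers, by 0.94 in number 1 and by 0.32 in number 2 (log2). Ugp2 has 78 exon bases in common with the antisense gene Gm12043 in GENCODE (161 to 901 counts per library), and as no label says whether strand was kept, their reads cannot be told apart there.

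Gbe1, the glycogen branching enzyme, whose loss causes glycogen storage disease type IV in humans, had 164, 203 and 249 CPM as the lowest, median and highest HFHS values. The LFLS values were 93.4, 125 and 222 CPM. Every HFHS library was above the LFLS median, and 6 of the 7 LFLS libraries lay below every HFHS library, the exception being LFLS 6. Gbe1 averaged 208 ± 35.1 CPM in HFHS and 139 ± 42.6 CPM in LFLS (SD, n = 7 each), a log2 fold change of 0.59 ± 0.17 (SE). Its adjusted p in edgeR was 0.0771, and was 0.0128 without LFLS 6. With the title number as a block it was 0.0131, and the call held whichever library was left out (0.00303 to 0.0346). The difference was 0.82 within title number 1 (adjusted p 0.0244 in edgeR) and 0.37 within number 2 (adjusted p 0.246 in edgeR).

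Gyg encodes glycogenin, the self-glucosylating protein on which a new chain starts, and was the least abundant of the 9 per length of exon. It had 5.81, 7.19 and 8.09 CPM as lowest, median and highest values in HFHS and 4.41, 5.81 and 6.49 CPM in LFLS. The ranges overlap, with 5 of 7 HFHS libraries above every LFLS library. The log2 fold change of 0.36 ± 0.12 (SE) had an adjusted p of 0.107 in edgeR, and of 0.0525 with the block.

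Gys2, the liver glycogen synthase, was among the 2 genes whose mean was lower on HFHS. It ran from 202 through 241 to 341 CPM in HFHS and from 188 through 287 to 578 CPM in LFLS. The HFHS libraries lay inside the LFLS range, and LFLS 6 and LFLS 1 were the highest of all 14. The log2 fold change of -0.30 ± 0.22 (SE) had an adjusted p of 0.459 in edgeR, and its sign turned with voom, at 0.095. Without LFLS 6 it was -0.10. Values were -0.20 within title number 1 and -0.37 within number 2, and the spread was wider in LFLS (SD 133.5 CPM) than in HFHS (SD 50.9 CPM), a difference in spread that was not tested.

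The phosphatase targeting subunits bring protein phosphatase 1 to the glycogen particle. Ppp1r3b encodes GL, the form enriched in liver, and Ppp1r3c encodes PTG, a form found in many tissues. Ppp1r3b had 203, 315 and 477 CPM as lowest, median and highest values in HFHS, against 111, 125 and 390 CPM in LFLS. The LFLS values fell in separate clusters: 111 to 125 CPM in the 4 libraries of title number 1 and 241 to 390 CPM in the 3 of number 2. HFHS values were 203 to 315 CPM in number 1 and 383 to 477 CPM in number 2, so that within number 1 every HFHS library was above every LFLS library and within number 2 the diets overlapped. Without a block the log2 fold change was 0.67 ± 0.31 (SE) with an adjusted p of 0.252 in edgeR. With the block it was 0.82 ± 0.16 with an adjusted p of 0.00875, and the blocked call held whichever library was left out (0.00756 to 0.0233). Within number 1 the difference was 1.19 (adjusted p 0.0110 in edgeR) and within number 2 it was 0.36 (adjusted p 0.318 in edgeR). The test of whether the diet difference itself differed between the numbers gave -0.81 ± 0.24 (log2, number 2 minus number 1, SE) with an adjusted p of 0.0859 in edgeR.

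Ppp1r3c, the less abundant of the pair per length of exon, had 20.2, 28.5 and 41.3 CPM as lowest, median and highest values in HFHS, against 18.7, 34.6 and 56.0 CPM in LFLS. The diets overlapped, with LFLS 1 and LFLS 3 above every HFHS library. The log2 fold change was -0.22 ± 0.23 (SE), with an adjusted p of 0.642 in edgeR. It was -0.07 without LFLS 1, -0.12 without LFLS 3 and -0.14 without HFHS 1 or HFHS 5. Its sign differed between the title numbers, at -0.46 within number 1 and 0.31 within number 2, and the interaction of 0.78 ± 0.34 had an adjusted p of 0.187 in edgeR. In LFLS the 3 libraries of number 2 had 18.7 to 25.5 CPM and the 4 of number 1 had 34.6 to 56.0 CPM, with no overlap.

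Promoters from the RefSeq table (GRCm38.p6, whereas the counts were made on mm9) were matched for 7 of the 9 genes and read for the genes whose levels moved apart or together. Printed 5′ to 3′ are the bases before the RefSeq start of Ppp1r3c (chr19:36736654-36736854, minus strand), whose level moved against that of Ppp1r3b between title numbers in LFLS, and of Gbe1 (chr16:70313699-70313948, plus strand) and Ugp2 (chr11:21371268-21371517, minus strand), which were both higher on HFHS with the block. Bases that GENCODE annotates as exon were left out. Capitals mark matches to the E-box CACGTG and to the CCAAT box on either strand.
Ppp1r3c: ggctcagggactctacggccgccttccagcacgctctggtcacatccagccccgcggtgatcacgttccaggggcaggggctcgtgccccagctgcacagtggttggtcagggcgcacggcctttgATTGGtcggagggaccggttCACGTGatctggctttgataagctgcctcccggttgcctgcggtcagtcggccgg
Gbe1: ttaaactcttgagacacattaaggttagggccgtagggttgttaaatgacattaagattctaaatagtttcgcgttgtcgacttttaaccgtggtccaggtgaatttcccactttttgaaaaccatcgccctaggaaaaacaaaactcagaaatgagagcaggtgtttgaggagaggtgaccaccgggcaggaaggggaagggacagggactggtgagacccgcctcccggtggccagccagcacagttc
Ugp2: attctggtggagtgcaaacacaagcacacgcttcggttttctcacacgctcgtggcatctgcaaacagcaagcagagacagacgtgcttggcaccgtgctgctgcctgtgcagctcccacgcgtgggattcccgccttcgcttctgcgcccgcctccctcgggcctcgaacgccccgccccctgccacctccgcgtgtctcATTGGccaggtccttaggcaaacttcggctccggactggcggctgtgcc
Besides CACGTG and CCAAT, the cAMP response element TGACGTCA, its half-site TGACGT and the forkhead motif GTAAACA were searched on both strands in the 250 bases before the start. TGACGTCA contains TGACGT, and CACGTG reads the same on both strands. Ppp1r3c held 1 CACGTG, at position -104 from the RefSeq start, a match found in 6.02% of 32851 promoters, and 1 CCAAT box on the reverse strand at -124. Ugp2 held 1 CCAAT box on the reverse strand at -49 in the promoter printed and none in its other listed promoter, and 33.8% of promoters hold one. Gbe1 held no match, and neither did Gyg, Pygl, Phka2 or Phkb. The share of all promoters with a match was 1.55% for TGACGTCA, 6.47% for TGACGT and 3.17% for GTAAACA. These matches describe the letters and do not show binding.

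**Figure D2:**
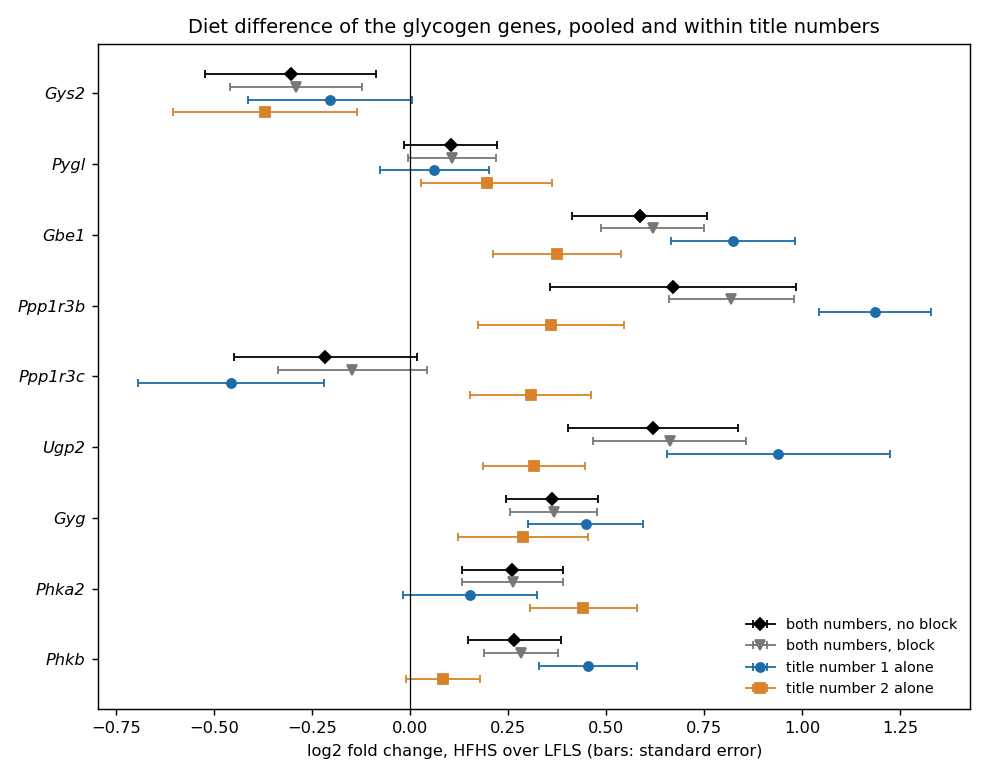
Log2 fold change of HFHS over LFLS for each of the 9 genes with its standard error, from edgeR over all libraries without a block (diamonds), with the title number as a block (triangles) and within title number 1 (circles) or 2 (squares). Ppp1r3b, Ugp2 and Gbe1 lie farthest right in number 1, at 1.19, 0.94 and 0.82, and Ppp1r3c lies on opposite sides of 0 in the title numbers.

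On the breakdown side, Pygl encodes liver glycogen phosphorylase, which splits glucose 1-phosphate off the chain ends. It had 339.7, 434 and 468 CPM as lowest, median and highest values in HFHS and 303, 393 and 486 CPM in LFLS. The diets overlapped throughout, and the log2 fold change of 0.10 ± 0.12 (SE) had an adjusted p of 0.659 in edgeR, and was 0.16 without LFLS 1 and 0.06 without LFLS 5. Phosphorylase is switched on by phosphorylase kinase, of which Phka2 encodes the liver form of the alpha regulatory subunit and Phkb the beta regulatory subunit. Phka2 had 33.5, 38.5 and 42.4 CPM in HFHS and 24.9, 29.1 and 45.1 CPM in LFLS, where LFLS 1 was the highest of all 14 libraries. Its log2 fold change was 0.26 ± 0.13 (SE) with an adjusted p of 0.273 in edgeR. Phkb had 30.0, 36.1 and 38.4 CPM in HFHS and 21.8, 28.3 and 37.8 CPM in LFLS, a log2 fold change of 0.27 ± 0.12 (SE) with an adjusted p of 0.228 in edgeR. Within title number 1 the log2 fold change was 0.45 for Phkb and 0.15 for Phka2. Within number 2 it was 0.08 for Phkb and 0.44 for Phka2. All 7 HFHS libraries were above the LFLS median for both kinase genes, and for both the ranges overlapped. Phka2 has 115 exon bases in common with the antisense gene Gm15243 (40 to 274 counts per library), whose reads cannot be told apart there.

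Read within a title number, 5 of the 9 genes (Ugp2, Gbe1, Gyg, Ppp1r3b and Phkb) had every HFHS library above every LFLS library in number 1, where this held for 12.4% of all genes. In number 2 this held for Ugp2 and Phka2, 2 of the 9, where it held for 13.1% of all genes. For the interaction of diet and title number, 0 of the 9 genes passed edgeR's quasi-likelihood test at an adjusted p under 0.05. Over all genes 0.883% did. At an unadjusted p under 0.05, 3 of the 9 passed, where 3886 of all 17223 genes did. Other tools called more of the 9 on the same counts. DESeq2 called Gbe1 and Gyg, where it called 7.3% of all genes. With library totals in place of TMM, edgeR called Gbe1, and 3.08% of all genes. Each title number alone gave calls for Gbe1 and Ppp1r3b in number 1 (8.49% of all genes) and none in number 2 (1.58%). At an unadjusted p under 0.05, 2 of the 9 passed in number 2 alone, where 3504 of all 17010 genes did. Without LFLS 1 and LFLS 2 none of the 9 was called without a block (2.25%), and Gbe1 and Ppp1r3b were with it (5.83%). The unblocked log2 fold change was then 0.38 for Ugp2, 0.43 for Gbe1, 0.44 for Ppp1r3b and 0.14 for Phkb, below the values over all libraries, and -0.01 for Ppp1r3c. It was 0.39 for Gyg, 0.32 for Phka2, 0.14 for Pygl and -0.34 for Gys2. The voom method of limma with quality weights called Gbe1, Gyg, Phka2, Phkb, Ppp1r3b and Ugp2, where it called 19% of all genes.

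The title number itself was compared within each diet, a comparison added after the values had been seen. In LFLS, number 2 libraries were higher than number 1 libraries for Ppp1r3b by 1.53 ± 0.17 (log2, SE), with an adjusted p of 0.00295 in edgeR, for Gbe1 by 0.71 ± 0.17 (0.0207) and for Phkb by 0.50 ± 0.13 (0.0252). Ppp1r3c was lower in number 2, with -0.93 ± 0.20 (0.0135). These 4 of 9 genes stand against 27.5% of all genes called in that comparison. In HFHS none of the 9 passed, where 0.503% of all genes did. At an unadjusted p under 0.05, 2 of the 9 passed in HFHS, where 3006 of all 17697 genes did. Several marker lists moved with the title number in LFLS, and fasting and clock genes also held calls in HFHS. The 12 genes raised by fasting in liver summed to 1.18% to 1.41% of counts in number 2 and 0.800% to 1.03% in number 1, with 7 of 12 higher and 1 lower in number 2. Hepatocyte markers summed to 11.3% to 12.8% in number 2 and 9.39% to 10.9% in number 1 of LFLS, with 3 of 10 higher and 1 lower. The fasting genes summed to 0.895% to 0.970% in number 2 and 0.617% to 0.756% in number 1 of HFHS. Of the 12, 3 were higher in number 2 of HFHS and none lower (0.503% of all genes in either direction). Of 15 clock genes tested in LFLS, 4 were higher and 3 lower in number 2 (27.5% of all genes). Of 14 clock genes tested in HFHS, 2 were higher and 3 lower in number 2 (0.503%). Kupffer cell markers summed to 0.0181% to 0.0325% in number 2 and 0.0434% to 0.0469% in number 1 of LFLS, with 4 of the 8 tested lower. Exocrine pancreas markers summed to 0.00169% to 0.00439% in number 2 and 0.00203% to 0.172% in number 1 of LFLS, with 2 of the 14 tested lower. The correlation of gene deviations with GC content was -0.37 to -0.25 in number 2 and 0.22 to 0.59 in number 1 of LFLS. In HFHS this correlation was -0.41 to -0.11 in number 2 and -0.21 to 0.05 in number 1. Within number 1 the diets therefore did not overlap in it, and diet and GC trend cannot be told apart there. The part of these markers in the glycogen genes' values was not tested, apart from that of GC content in the diet differences. With offsets for GC content and length and the title number as a block, Ppp1r3b was still called (0.83 ± 0.16, adjusted p 0.0105 in edgeR), while Gbe1 (0.44 ± 0.13, 0.0538) and Ugp2 (0.37 ± 0.15, 0.153) were not, and 6.99% of all genes were. The longest annotated transcripts of Ugp2 and Gbe1 hold 39.1% and 42.3% GC, the lowest of the 9, and that of Ppp1r3b holds 48.4%.

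Between the diets, the fasting genes summed to 0.617% to 0.970% of counts in HFHS and 0.800% to 1.41% in LFLS. None of the 12 passed edgeR's quasi-likelihood test without a block, and their median log2 fold change was -0.72. At an unadjusted p under 0.05, 6 of the 12 passed, where 19.6% of all genes did. With the block 3 of the 12 were lower on HFHS (8.94% of all genes in either direction). Without it DESeq2 called 1 lower (7.3%) and voom none (19%). Hepatocyte markers had a median log2 fold change of -0.40; none of the 10 passed in edgeR, 5 had an unadjusted p under 0.05, and 3 were lower with the block. Without a block DESeq2 called 3 of the 10 lower (7.3% of all genes in either direction) and voom 2 (19%). Of 14 clock genes tested none passed in edgeR without a block, 4 had an unadjusted p under 0.05 (19.6% of all genes), and 2 were lower with the block (8.94% of all genes in either direction). DESeq2 called none of the 14, and voom called 4 higher. They summed to 0.0753% to 0.0967% in HFHS and 0.0624% to 0.107% in LFLS. Periportal markers summed to 0.309% to 0.533% in HFHS and 0.428% to 0.718% in LFLS, and pericentral markers to 0.701% to 1.12% in HFHS and 0.672% to 1.03% in LFLS. Of the 8 periportal markers none passed in edgeR without a block, and 5 had an unadjusted p under 0.05 (19.6% of all genes). With the block 1 was lower (8.94%), and without it DESeq2 called 3 lower (7.3%) and voom 2 (19%). Of the 8 pericentral markers 1 was lower in edgeR without a block (2.81% of all genes in either direction). The count was also 1 with the block, with DESeq2 and with voom. Kupffer cell markers summed to 0.0248% to 0.0443% in HFHS and 0.0181% to 0.0469% in LFLS, and exocrine pancreas markers to 0.00150% to 0.0451% in HFHS and 0.00169% to 0.172% in LFLS. The part of these lists in the diet differences of the glycogen genes was not tested.

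Ratios taken within a library do not depend on how libraries are scaled. The log2 ratio of Gys2 to Pygl counts, synthase over phosphorylase, was -0.9996, -0.73 and 0.0071 as lowest, median and highest value in HFHS and -1.19, -0.28 and 0.41 in LFLS. The diets overlapped, and the means of -0.67 ± 0.35 in HFHS and -0.33 ± 0.53 in LFLS (SD, n = 7 each) differed by -0.34. A two-sided exact permutation test over all regroupings gave p = 0.179, which stayed 0.179 after adjustment over the 2 ratios, and p = 0.05 when regrouping was kept within title numbers. The difference was -0.22 within number 1 and -0.51 within number 2.

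The log2 ratio of Ppp1r3c to Ppp1r3b was -4.06, -3.59 and -2.80 as lowest, median and highest value in HFHS and -3.94, -1.80 and -1.15 in LFLS. LFLS libraries of title number 1 lay at -1.80 to -1.15, above the other 10 libraries, and LFLS libraries of number 2 lay at -3.94 to -3.69, among the HFHS libraries. The means of -3.43 ± 0.53 in HFHS and -2.45 ± 1.31 in LFLS (SD, n = 7 each) differed by -0.98, with p = 0.0845 in the two-sided exact permutation test and 0.169 after adjustment over both ratios. Regrouping within title numbers gave an adjusted exact permutation p of 0.0171. Within number 1 the difference was -1.66 with an exact permutation p of 0.0286, the smallest that 4 libraries against 4 allow (0.0571 after adjustment over both ratios), and within number 2 it was -0.08 with p = 0.6. Without LFLS 1 and LFLS 2 the pooled difference was -0.54, with an adjusted exact permutation p of 0.340.

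**Figure D3:**
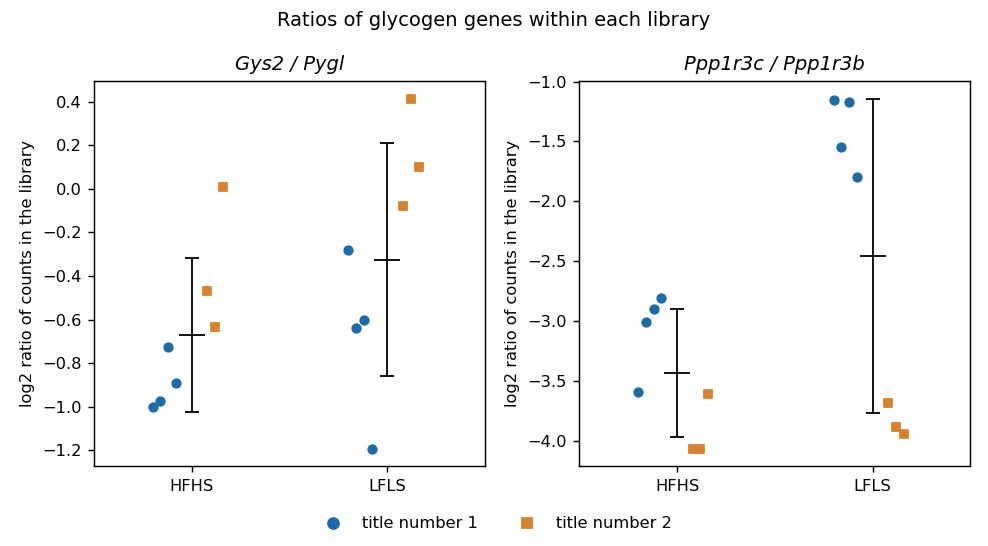
Log2 ratio of counts within each library for Gys2 over Pygl (left) and Ppp1r3c over Ppp1r3b (right), HFHS left of LFLS in each panel, circles for title number 1, squares for number 2, and the mean and SD of 7 libraries in black. For Ppp1r3c over Ppp1r3b the 4 LFLS libraries of number 1 sit at -1.80 to -1.15, above all others, and the 3 of number 2 sit with the HFHS libraries.

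Across mice pooled over title numbers, Gbe1, Ugp2 and Ppp1r3b each varied with the kinase subunit gene Phkb. For Ppp1r3b the correlation with Phkb was r = 0.26 within title numbers. Log2 CPM was centred on each diet's mean and correlated over the 14 libraries for the 36 pairs of genes, with permutation tests of 100000 resamples within diets. Of the 36 pairs 24 were positive, and 6 had a Benjamini-Hochberg adjusted permutation p of Pearson's r under 0.05, all positive. The share among pairs of other genes was not computed, so these counts have no background to be read against. Gbe1 and Phkb had the highest value, with r = 0.92 and Spearman's rho = 0.85, and adjusted permutation p of 0.00072 and 0.00468. Leaving out the 2 libraries farthest from the median of Gbe1 gave r = 0.86. Ugp2 and Phkb had r = 0.88 and rho = 0.82 (adjusted permutation p 0.00396 and 0.0418, r = 0.80 without 2 libraries), and Gbe1 and Ugp2, of whose printed promoters that of Ugp2 alone held a match, had r = 0.77 and rho = 0.72 (0.0419 and 0.0418, r = 0.67 without 2). The other 3 pairs were Gbe1 with Ppp1r3b (r = 0.76, rho = 0.70, r = 0.65 without 2), Ppp1r3b with Phkb (r = 0.78, rho = 0.75, r = 0.67 without 2) and Pygl with Phka2 (r = 0.74, rho = 0.74, r = 0.83 without 2), each with an adjusted permutation p of 0.0419 for r. The adjusted permutation p for rho was 0.0460 for the first of these pairs and 0.0638 for the other 2. The longest annotated transcripts of Ugp2, Gbe1 and Phkb hold 39.1%, 42.3% and 43.3% GC, lower than those of the other genes paired. The log2 CPM carried no offset for GC content. Over the libraries, the correlation of gene deviations with GC content ran from -0.41 in HFHS 7 to 0.59 in LFLS 1. The part of GC content in the correlations between genes, pooled or within title numbers, was not tested.

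Since the title numbers cluster in LFLS, the same correlations were taken on deviations from the mean of diet and title number. Only Gbe1 and Phkb kept an adjusted permutation p under 0.05 (r = 0.82, adjusted p 0.0461; rho = 0.78, adjusted p 0.0943). Ugp2 and Phkb had r = 0.80 and Pygl and Phka2 had r = 0.77, both with an adjusted permutation p of 0.0787. Gbe1 and Ppp1r3b dropped to r = 0.20, and Ppp1r3b and Phkb to r = 0.26, so the pooled values of these pairs rest on the difference between title numbers. Ppp1r3b and Ppp1r3c had r = -0.55 pooled and r = 0.58 within title numbers, with adjusted permutation p of 0.217 and 0.282.

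**Figure D4:**
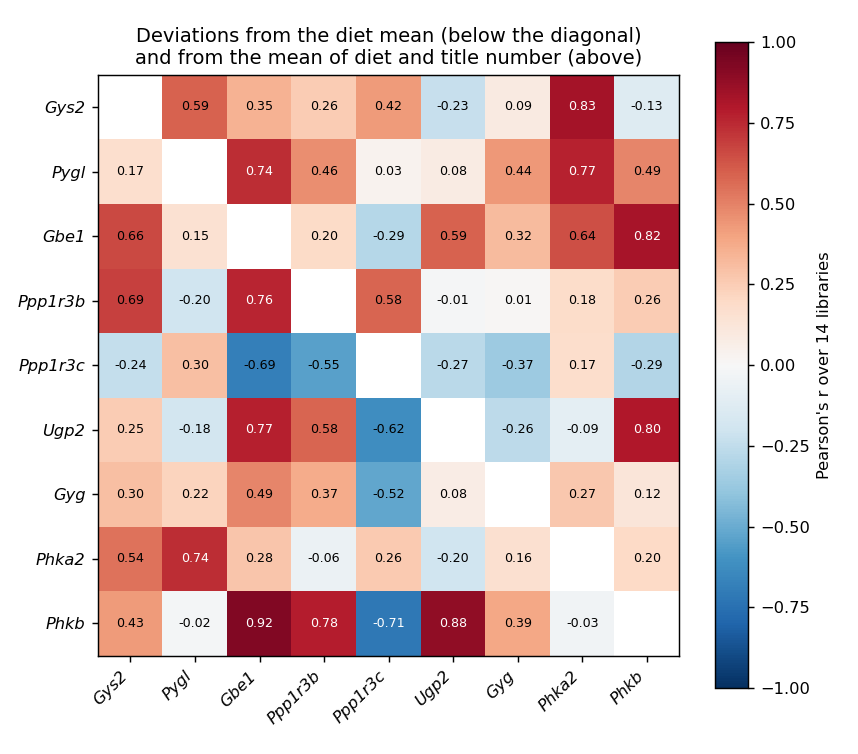
Pearson's r over 14 libraries for each pair of the 9 genes, on log2 CPM centred on the diet mean (below the diagonal) and on the mean of diet and title number (above it), from -1 in blue to 1 in red. Gbe1 and Phkb are at 0.92 below and 0.82 above, and Ppp1r3b with Ppp1r3c is at -0.55 below and 0.58 above.

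As a description, the genes most like Gbe1 over the 14 centred libraries, of 11008 genes averaging 5 CPM or more, were Erbb4 (r = 0.96), Mme (0.95), Rala (0.94), Spag9 (0.94) and Myc (0.94). Those most like Gys2 were Neu2 (0.95), Rnf26 (0.95), Usp2 (0.94), Gpd1l (0.93) and Smarca2 (0.92). The 2 sets share no gene, a count with no background to be read against. These values were centred on the diet mean alone, so differences between title numbers are part of them.

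Of 26 other genes of glycogen metabolism, 25 were tested. In edgeR 1, Epm2a, was higher on HFHS and none was lower, where 2.81% of all genes were called, and the median log2 fold change was 0.03. DESeq2 called 1 higher and 1 lower (7.3% of all genes in either direction), and voom 6 higher and 2 lower (19%). The muscle targeting subunit gene Ppp1r3a, with 1 to 11 counts per library, was not tested. Epm2a encodes laforin, a phosphatase that removes phosphate from glycogen and is mutated in Lafora disease in humans. It had 9.55, 10.8 and 12.2 CPM as lowest, median and highest values in HFHS and 5.95, 6.41 and 9.34 CPM in LFLS. Every HFHS library was above every LFLS library, the highest LFLS value being that of LFLS 6. The log2 fold change of 0.61 ± 0.11 (SE) had an adjusted p of 0.0133 in edgeR, 0.00475 with the block, and the call held whichever library was left out (0.00307 to 0.0354). It was 0.62 within title number 1 and 0.63 within number 2.

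The other genes named from this list, chosen as those of smallest p, did not pass in edgeR over all libraries. Gsk3a, a kinase that inhibits glycogen synthase, had 42.6 ± 2.27 CPM in HFHS and 49.95 ± 5.49 CPM in LFLS (SD, n = 7 each; log2 fold change -0.23, adjusted p 0.132 in edgeR and 0.0428 in DESeq2). The log2 fold change of Gsk3a was -0.34 within title number 1 (adjusted p 0.0407 in edgeR) and -0.04 within number 2 (0.811). Gaa, the lysosomal glucosidase that degrades glycogen in lysosomes, had 67.9 ± 3.38 CPM in HFHS and 94.5 ± 43.5 CPM in LFLS (log2 fold change -0.48, adjusted p 0.220 in edgeR, and a log2 fold change of 0.11 within title number 2), with 183 CPM in LFLS 1. Without LFLS 1 the log2 fold change of Gaa was -0.23. Gys1, the glycogen synthase of muscle and other tissues, stood at 3.36 ± 0.649 CPM in HFHS and 4.12 ± 0.455 CPM in LFLS (adjusted p 0.253 in edgeR). Phkg2, the liver catalytic subunit of phosphorylase kinase, stood at 17.1 ± 1.01 CPM in HFHS and 19.5 ± 2.83 CPM in LFLS, with a mean lower on HFHS where its partners Phka2 and Phkb had higher ones (adjusted p 0.289 in edgeR).

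**Figure D5:**
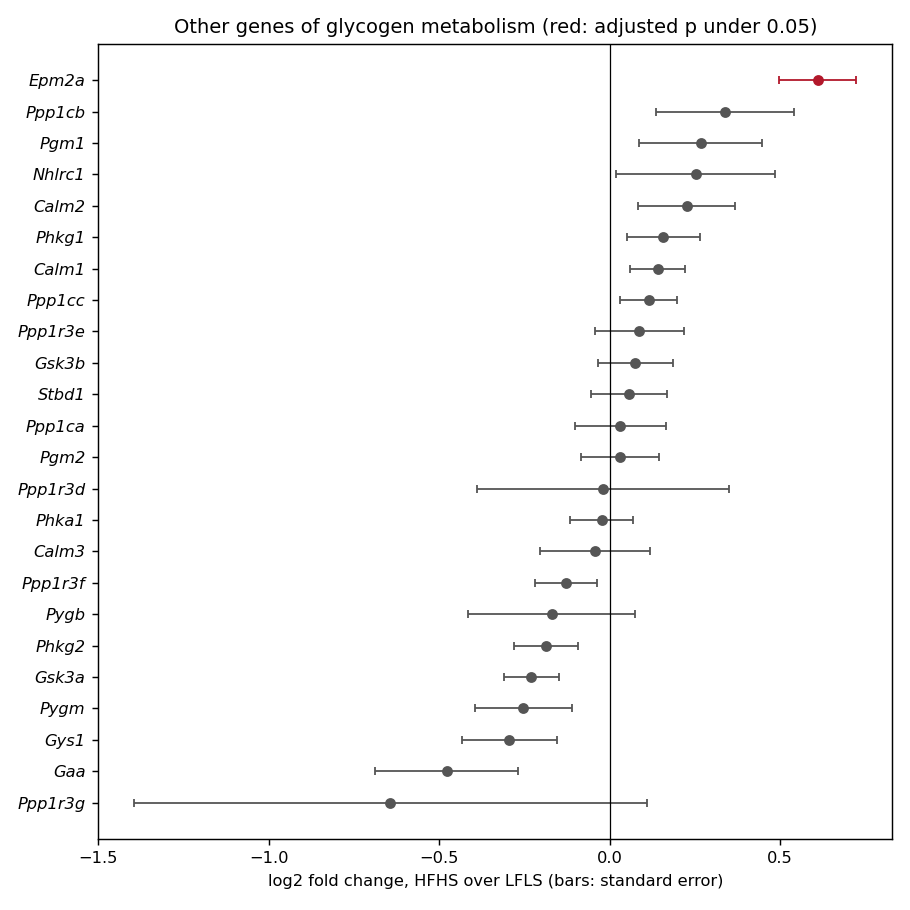
Log2 fold change of HFHS over LFLS with its standard error for 24 of the 25 other genes of glycogen metabolism that were tested, from edgeR without a block, sorted by size, with red for an adjusted p under 0.05. Epm2a at 0.61 is the one in red, and 13 of the 24 lie right of 0.

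Of the 15 genes that carry hormone signals to glycogen, 1 was called lower on HFHS in edgeR and none higher, where 2.81% of all genes were called in either direction. DESeq2 also called 1 lower (7.3% of all genes in either direction), and voom called 1 higher and 3 lower (19%). The gene called in edgeR was Irs2, an insulin receptor substrate, at 13.5 ± 3.55 CPM in HFHS and 30.3 ± 9.20 CPM in LFLS (SD, n = 7 each), with every HFHS library below every LFLS library. The log2 fold change was -1.17 ± 0.20 (SE) with an adjusted p of 0.00943 in edgeR. Akt1, a kinase downstream of it, had a log2 fold change of -0.43 ± 0.15 with an adjusted p of 0.121 in edgeR and 0.0346 with the block, a blocked call that held in 6 of the 14 tests that each left out 1 library. The log2 fold change of Akt1 was -0.57 within title number 1 (adjusted p 0.0406 in edgeR) and -0.15 within number 2 (0.387). Of 6 genes around glucose 6-phosphate, the substrate and allosteric activator of the pathway, none passed in edgeR without a block (2.81% of all genes). At an unadjusted p under 0.05, 2 of the 6 passed, where 19.6% of all genes did. DESeq2 called 1 of the 6 higher on HFHS (7.3% of all genes in either direction) and voom 2 (19%). The glucose transporter gene Slc2a2 had 368 ± 32.8 CPM in HFHS and 268 ± 70.8 CPM in LFLS (log2 fold change 0.46, adjusted p 0.0928 in edgeR, 0.0494 with the block). Its blocked call held in 2 of the 14 such tests, without LFLS 1 and without LFLS 6, where the unblocked test in edgeR also passed (adjusted p 0.0483 and 0.0186).

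In the authors' deposited table, made with DESeq, the adjusted p was 1.0 for each of the 9 genes and for Epm2a, and 0.3 for Irs2. The unadjusted p in the authors' deposited table was 0.05 for Gbe1 and Ugp2, the lowest of the 9, and 0.98 for Pygl, the highest.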

How the data were processed

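Liver RNA of 14 mice was sequenced, 7 per diet, with 1 library per mouse, so p-values measure the spread between animals. Without a block this spread includes the difference between title numbers. Per the submitters' processing notes, the mouse build was mm9 and the tools were CASAVA 1.8, TopHat, Bowtie and DESeq. No counting tool or annotation is given in the sources used here. Deposited counts are whole numbers per Ensembl gene, never below 1, and 11120 genes stand at 1 in every library. From the authors' deposited results table, only gene names and the DESeq p-value and adjusted p-value columns, named so in the file headers and rounded, were used, because its group columns name no diet.

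Counts were tested in edgeR 4.0.16 (R 4.3.3) with TMM scaling, the default filter on low counts by diet and the quasi-likelihood F test, HFHS against LFLS without covariates, with Benjamini-Hochberg adjustment over 17223 genes and a threshold of 0.05. Standard errors are the size of the log2 fold change over the square root of F. Levels in a library are TMM-scaled CPM, and levels per kb use the summed exon length of GENCODE M21 (GRCm38). Ratios were compared by exact permutation, two-sided. The scripts were tested on simulated data.

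The title number was used as a block because, between diets, deviations of libraries from their diet's mean had a mean correlation of 0.129 when the number was shared and -0.134 when it was not. Deviations from a diet's mean cancel out over its libraries, so the second value largely follows from the first. Other settings were DESeq2 1.42.0, voom with quality weights (limma 3.58.1), other scalings and filters, subtraction of 1 from each count, GC and length offsets (lowess span 0.3), title pairs as a block and leaving out each library. Chosen after values were seen were leaving out LFLS 1 and LFLS 2, leaving out single libraries with the block, and the comparison of title numbers within a diet.

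The named genes were the 9 genes, the called genes of each list with the 6 (other glycogen genes) or 2 (hormone signals, glucose 6-phosphate) of smallest p, and the 5 genes most correlated with Gbe1, the member of smallest p, and with Gys2. Of these, 2 are not reported here, though the counts over their lists include them. The genes and lists were chosen with earlier results of these data known. Marker lists covered hepatocytes, skeletal muscle, exocrine pancreas, adipocytes, blood, Kupffer cells and both liver zones. Lists share Pck1 and Sds (fasting and periportal), Tat (fasting and hepatocyte), Ass1 (hepatocyte and periportal) and G6pc (fasting and glucose 6-phosphate). Adipocyte markers summed to 0.00522% to 0.0233% of counts in HFHS and 0.00511% to 0.00921% in LFLS, and blood markers to 0.0400% to 0.0501% in HFHS and 0.0298% to 0.0789% in LFLS.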

Additional observations from a re-analysis of the deposited data

Results flagged for a closer look

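Irs2 had 49.1 CPM in LFLS 1, against 21.9 to 32.8 CPM in the other 6 LFLS libraries. The gap to the nearest library was 0.599 of the group's range, above the value that Dixon's test allows for 7 libraries. It was the 1 group past that value among the 42 groups of libraries tested, and chance flags about 1 in 20 groups. Without LFLS 1 the log2 fold change of Irs2 was -1.01, with an adjusted p of 0.00930 in edgeR.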

How the results depend on the processing

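Of the 9 genes, the count called (all higher on HFHS) was 0 without a block and 0 to 1 when 1 library was left out. It was 3 with the title number as a replicate block (2 to 5 when 1 library was also left out), 2 with title pairs as a block (Gbe1 and Ppp1r3b), 1 with GC and length offsets and the block, 1 with library totals alone (Gbe1), 2 with DESeq2, 6 with voom, 2 within title number 1 and 0 within number 2. Without LFLS 1 and LFLS 2 it was 0, and with the block 2 (Gbe1 and Ppp1r3b). Over all genes 484 were called, 133 to 853 when 1 library was left out, 1258 with DESeq2, 3274 with voom, 1540 with the block (650 to 1862 when 1 library was also left out), 1204 with GC and length offsets and the block, 1022 with the block but without LFLS 1 and LFLS 2, 173 without a filter, 1484 within title number 1 and 269 within number 2. Of the other glycogen genes 1 was called, 2 with DESeq2, 8 with voom, 4 within title number 1 and 0 within number 2. Direction reversed for Gys2 with voom (0.095), and for Ppp1r3c (0.31) and Gaa (0.11) within title number 2; the cause was not tested. The difference in the Ppp1r3c to Ppp1r3b ratio (-0.98) passed with the block (adjusted exact permutation p 0.0171; 0.0781 with title pairs) and ran from -1.23 to -0.76 when 1 library was left out, and that of Gys2 to Pygl from -0.49 to -0.22. Title pairs, mice that share a number and letters in their titles, correlated at -0.07 to 0.41, over 0.1 in 4 of 7, so the shared titles were not taken to pair the mice. With 7 mice per diet and libraries of 18.2 M to 52.8 M counts, Gyg and Gys1 rest on the fewest reads of the tested genes whose levels are given.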
